A study of Homo sapiens with 21 samples.

Results

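The proteasome genes were taken as the protein-coding rows whose symbol is PSM followed by a letter from A to G and a number, with the inducible beta subunits PSMB8 and PSMB9 left out. This rule gave 46 of the 61544 genes in the table. They were followed in BJ cells, an established human skin fibroblast line with a limited replicative lifespan, in 21 RNA-seq libraries, poly(A)-selected per the labels' protocol, although the labels' molecule field names DNA. There were 7 groups of 3 libraries, of which 5 are untreated cells, collected at P3, at P11, at P24, at P30 and lastly at P33 (P stands for passage). The other groups are P11 cells given DOX (doxorubicin, a topoisomerase poison) at 50 ng/ml and P11 cells given DMSO, the solvent. The series title places both series under senescence, the replicative kind for the passages and the drug-induced kind for DOX. The labels give neither the length of the DOX treatment nor the population doublings at each passage.

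The proteasome is the large protease complex that degrades proteins tagged with ubiquitin. Its barrel-shaped core particle is stacked from rings of alpha and beta subunits, with the cutting sites inside on beta subunits, and its regulatory particle has a base with a ring of ATPases that unfolds substrates and a lid that removes their ubiquitin. Subunits are needed in fixed proportions, and the transcription factor NFE2L1 is known to raise their genes together when proteasome activity is short. Lower proteasome activity has been described in fibroblasts near the end of their lifespan.

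Libraries held 12.946 to 27.194 M counts, and replicates of a group lay close together (r of log2 CPM at least 0.991). All 10 fibroblast markers were above 10 CPM in every library. Under 1 CPM in every library were 4 of 5 endothelial, 5 of 6 leukocyte and 3 of 4 melanocyte markers, and 4 of 7 keratinocyte markers. Another 2 keratinocyte markers, DSP and KRT10, were above 10 CPM in every library. The summed keratinocyte list was 302 to 329 CPM at P3, 384 to 401 at P24 and 162 to 183 at P33. The summed fibroblast list was 18902 to 19659 CPM at P3, 24053 to 25566 at P24 and 14338 to 16388 at P33. Both sums were lowest among the passages at P33, like the proteasome genes. Of the 10 fibroblast markers 6 fell and 3 rose from P3 to P33. The part of these lists in the fall of the proteasome genes was not tested. The table was counted differently in its parts: of 9429 gene models that lie entirely within another model of their strand, 0 had a read in the 15 passage libraries, against 3950 in the 6 DOX and DMSO libraries. Passage levels are therefore not set against DOX or DMSO levels below. The 3 libraries at P3 also held a smaller share of long noncoding RNA (0.945% to 0.962%) than the other 18 libraries (1.46% to 2.11%), so P11 is given as a second baseline. The 3 at P33 held the largest share (1.82% to 2.11%, against at most 1.77% elsewhere) and the highest TMM scaling factors (up to 1.13). Both ends of P33 against P3 thus stood apart, and the P11 baseline removes only the P3 end. The part of this in the results was not tested.

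That counting touches 12 members that share a strand and position with another gene model. PSMA2, PSMA6 and PSMD9 had 0 reads in all passage libraries, while they held 151, 1715 and 200 reads in the DOX and DMSO libraries together. PSMA1, which overlaps the gene model ENSG00000256206, had between 0.0964 and 1.12 CPM in the passage libraries and 10.6 to 17.2 CPM in the DOX and DMSO libraries, so its passage values are uncertain. PSMA8, the testis form of an alpha subunit, and PSMB11, the thymus form of a beta subunit, failed the count filter, with 2 and 1 reads in the passage libraries and 6 and 1 in the DOX and DMSO libraries. This left 41 members for the passages and 44 for DOX against DMSO.

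All 29 measured subunits of the core and regulatory particles fell from P3 to P33, and none rose, with log2 fold changes between -2.08 and -0.33 and a median of -0.74, a 1.67-fold fall. The -2.08 belongs to PSMA1, whose passage values are uncertain (0.0964 to 0.379 CPM at P33). The next lowest value was -1.26, for PSMB1. In each of these 29 genes the 3 libraries at P33 lay below the 3 at P3. The share of all genes with groups apart in this way was not computed, so this count has no background. Over all genes tested, 33.3% fell and 34.5% rose in this comparison (edgeR, adjusted p under 0.05), and the median log2 fold change was 0.00. Among the other 12 measured members, which are assembly chaperones, activators, an inhibitor and an inducible subunit, 1 rose, 4 fell and 7 did not pass. Over all members 1 rose and 33 fell, with a median of -0.59, and with upper-quartile scaling 4 rose and 30 fell. With that scaling 6960 of all genes rose and 4481 fell. The grouping into core and regulatory subunits against the rest was made after the values were seen. A value in CPM is a share of the poly(A) RNA counted, so less RNA of these genes per cell and fewer cells holding it cannot be told apart in these bulk samples.

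**Figure D1:**
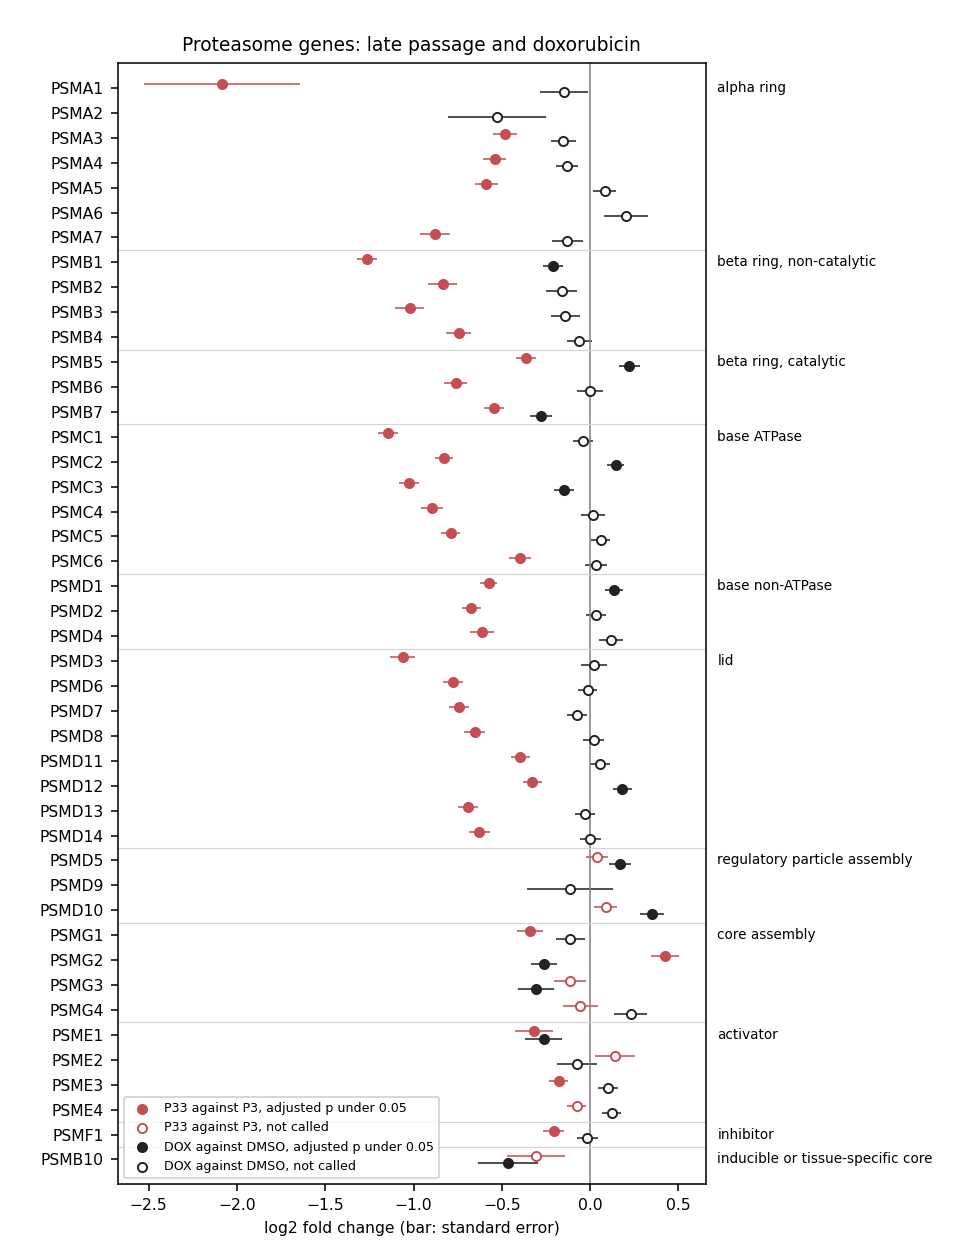
Log2 fold change (x axis, bar: standard error) of the 44 tested proteasome genes (y axis, grouped by role) for P33 against P3 (red) and DOX against DMSO (black). Filled points passed an adjusted p of 0.05. The red points of the core and regulatory subunits all lie left of 0, while the black points lie on both sides of it.

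In the alpha ring, which forms the gate of the core particle, all 5 measured subunits fell at P33. PSMA7 had 288, 290 and 291 CPM at P3 and 160, 149 and 164 CPM at P33. The groups did not overlap, and the log2 fold change was -0.88 ± 0.0849 (SE, 3 against 3 libraries, adjusted p = 8.18e-11). PSMA3, PSMA4 and PSMA5 fell by 0.48, 0.54 and 0.59 on the log2 scale. For PSMA4 the whole fall lay between P3 and P11, since P33 against P11 gave 0.08 with no call. PSMA1 gave -2.08 ± 0.44, which rests on 178 reads in 15 libraries.

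The non-catalytic beta subunits PSMB1 to PSMB4 had the lowest median of any role, -0.93, and all 4 fell. PSMB1, on the minus strand at chr6:170535120-170553307 (GRCh38), had 204, 193 and 187 CPM at P3, 136, 146 and 144 at P11, and 124, 127 and 111 at P24. It then had 111, 115 and 115 CPM at P30 and 79.8, 80.5 and 83.2 at P33. Each passage mean was below the one before, and P3, P11 and P33 each stood apart from all other passages. P33 against P3 gave -1.26 ± 0.0559, a 2.4-fold fall (adjusted p = 3.82e-19). PSMB3, at chr17:38752741-38764225, had 34.7, 41.8 and 36.5 CPM at P3 and 19, 19.9 and 16.7 CPM at P33, a 2.03-fold fall. PSMB2 and PSMB4 fell by 0.83 and 0.74.

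The 3 beta subunits that carry the cutting sites also fell, with a median of -0.54. PSMB6, the caspase-like subunit, had 32.8, 34.4 and 32.7 CPM at P3 and 18.3, 20.6 and 20.2 at P33 (-0.76 ± 0.0642, adjusted p = 3.36e-12). PSMB7, the trypsin-like subunit, had 72.5, 81.1 and 78.2 CPM at P3 and 49.5, 55.7 and 53.8 at P33 (-0.54 ± 0.059). Neither gene's groups overlapped. PSMB5, the chymotrypsin-like subunit that proteasome inhibitor drugs bind, did not follow the others. It had 89.5, 91 and 91 CPM at P3, 73.5, 80.8 and 73.7 at P11, and 72.9, 77.5 and 69.9 at P24. At P30 it stood at 89.4, 83.9 and 94.4 CPM, within the reach of P3, and at P33 at 69.9, 73 and 68.6. PSMB5 rose from P24 to P30 (0.28, adjusted p = 0.00023) and fell from P30 to P33 (-0.34). Its fall at P33 was -0.36 ± 0.0565 against P3, and -0.11 with no call against P11.

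The 6 ATPases of the base, PSMC1 to PSMC6, all fell, with a median of -0.86. PSMC1 (chr14:90256527-90275429, plus strand) had 114, 112 and 120 CPM at P3, 80.5, 84 and 82.7 at P11, 67.1, 74.8 and 70.9 at P24, 61.9, 67.8 and 69.7 at P30 and 50.2, 54.5 and 52.2 at P33. Only P24 and P30 overlapped among these groups. The change from P3 to P33 was -1.14 ± 0.0565 (adjusted p = 6.76e-18). PSMC3 had 256, 239 and 242 CPM at P3 and 119, 126 and 117 at P33, a 2.04-fold fall. PSMC6 fell least of the ATPases, by 0.40, from 71.6, 66.8 and 73.2 CPM at P3 to 53.4, 53.7 and 53.3 at P33.

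Among the other base subunits, PSMD4, a ubiquitin receptor, had 184, 186 and 189 CPM at P3 and 120, 125 and 121 at P33 (-0.61 ± 0.0658). PSMD2, a scaffold of the base, took another course: 412, 425 and 417 CPM at P3, 310, 311 and 316 at P24, 219, 231 and 227 at P30 and 248, 271 and 267 at P33. Its lowest group was P30, apart from every other, and it was the only core or regulatory subunit that rose from P30 to P33 (0.22, adjusted p = 0.0013). PSMD1 fell by 0.57.

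All 8 lid subunits fell. PSMD3 had 234, 240 and 265 CPM at P3 and 108, 126 and 120 at P33 (-1.06 ± 0.0711, a 2.09-fold fall, adjusted p = 1.28e-14). PSMD14, the lid enzyme that removes ubiquitin chains, had 120, 117 and 118 CPM at P3 and 88.2, 86.2 and 85.1 at P11. It had 76.6, 77 and 76.9 CPM at P33, so most of its change of -0.63 ± 0.0569 lay before P11. PSMD12 fell least of the lid, from 134, 123 and 132 CPM to 99.5, 104 and 107 (-0.33), and with P11 as baseline it had -0.12 and no call.

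Promoters of some core and regulatory subunits are shown because all 29 measured subunits fell from P3 to P33. Upstream sequence, the 250 bases before the start, was in the RefSeq table (GRCh38.p14) for 40 of the 46 members, as 48 promoters, and not for PSMA7, PSMB1, PSMB6, PSMB7, PSMD4 or PSMG3. The motifs TGACNNNGC, the core of the antioxidant response element that NFE2L1 and NFE2L2 bind with small MAF partners, and CCAAT, the box bound by NF-Y, were searched on both strands. These were chosen with the fold changes known. Below are PSMB3 and PSMD3, which fell more than 2-fold and hold both motifs, and PSMD14, which holds CCAAT matches only. Capitals mark the matches, which can lie on either strand.
PSMB3, chr17:38752491-38752740, plus strand: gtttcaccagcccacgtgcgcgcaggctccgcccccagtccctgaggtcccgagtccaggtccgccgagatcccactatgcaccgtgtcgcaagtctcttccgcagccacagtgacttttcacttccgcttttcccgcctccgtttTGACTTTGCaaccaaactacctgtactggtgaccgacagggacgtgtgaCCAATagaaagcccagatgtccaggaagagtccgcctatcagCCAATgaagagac
PSMD3, chr17:39980557-39980806, plus strand: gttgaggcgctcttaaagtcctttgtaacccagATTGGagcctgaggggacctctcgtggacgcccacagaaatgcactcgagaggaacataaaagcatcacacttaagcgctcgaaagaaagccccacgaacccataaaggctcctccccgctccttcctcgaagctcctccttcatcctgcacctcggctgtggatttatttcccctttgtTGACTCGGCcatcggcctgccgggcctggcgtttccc
PSMD14, chr2:161308175-161308424, plus strand: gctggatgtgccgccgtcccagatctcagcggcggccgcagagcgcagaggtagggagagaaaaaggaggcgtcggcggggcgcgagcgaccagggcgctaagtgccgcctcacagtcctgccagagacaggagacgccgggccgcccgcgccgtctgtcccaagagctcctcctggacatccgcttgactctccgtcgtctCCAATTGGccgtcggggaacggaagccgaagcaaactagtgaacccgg

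In PSMB3 the TGACNNNGC match begins 104 bases before the start, and in PSMD3 37 bases before it. In PSMD14 a match of CCAAT on each strand overlaps the other. TGACNNNGC was in 5 of 32 promoters of core and regulatory subunits (15.6%), in 7 of 16 promoters of the other members (43.8%) and in 10.9% of all 35116 promoters. CCAAT was in 43.8% of the promoters of core and regulatory subunits, 25% of those of the other members and 32% of all. CCGGAAG, the core bound by ETS factors, was in 18.8%, 31.2% and 8.52%. A match is only a run of letters, and the genes that fell included some with both motifs and some, such as PSMC1 and PSMB4, with no match of any of the 3.

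**Figure D2:**
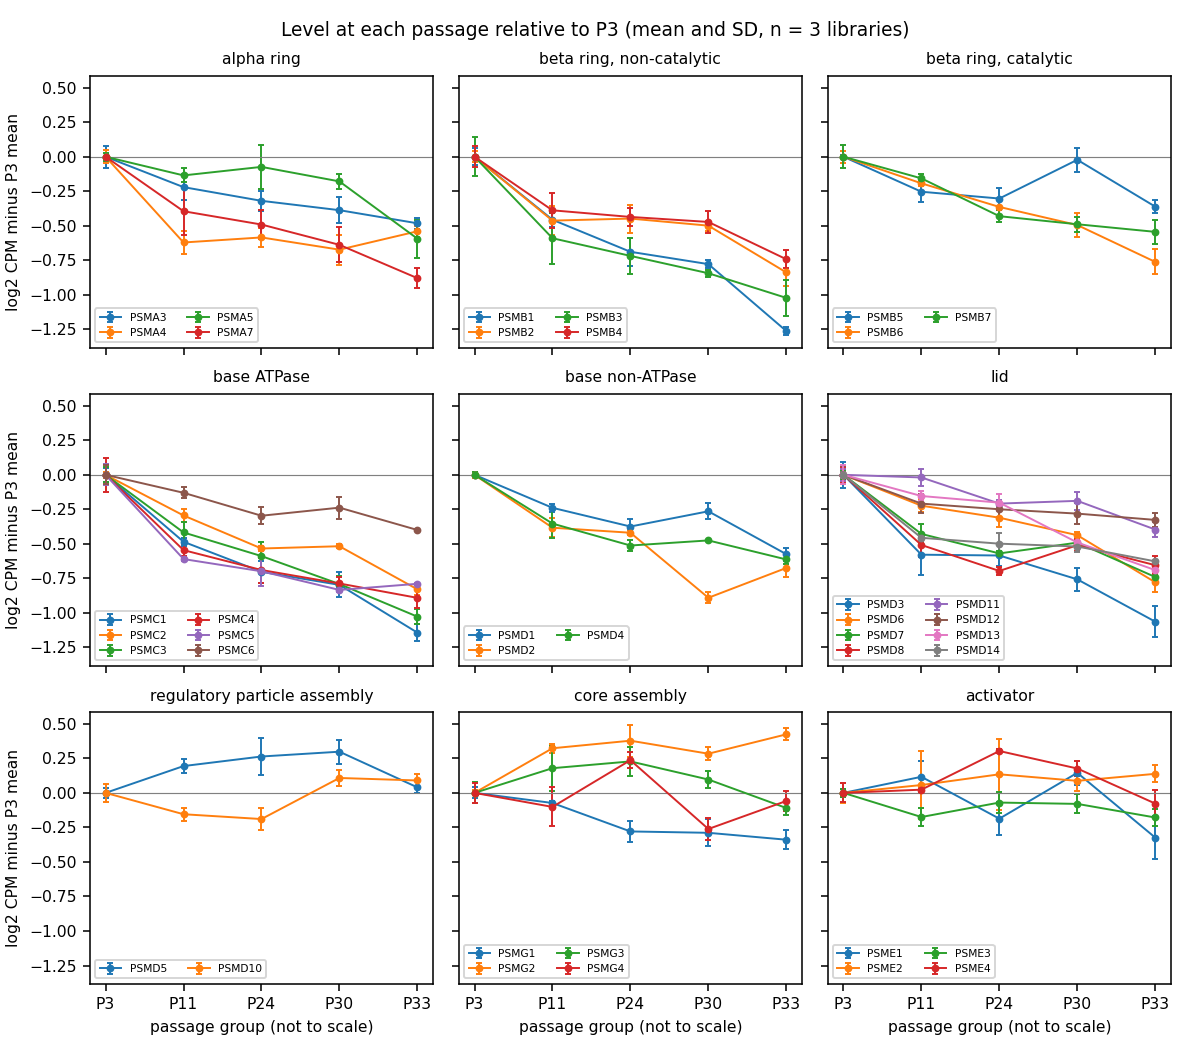
Mean log2 CPM minus the P3 mean (y axis, bar: SD of 3 libraries) at each passage group (x axis, not to scale), 1 line per gene and 1 panel per role. Not drawn are PSMA1, PSMF1, PSMB10 and the members not tested over the passages. Lines of the core and regulatory particles all end below 0 at P33, while those of assembly factors and activators end on both sides of it.

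The largest move of the core and regulatory subunits was the first. From P3 to P11, 25 of 29 fell and 0 rose (median -0.39), against 23.6% that fell and 22.9% that rose of all genes. PSMA4 (-0.62) and PSMC5 (-0.61) fell most among all members, of which 27 fell and 2 rose, PSMG2 (0.32) and PSMD5 (0.19). The PSMD5 call was lost without P11 replicate 1 (adjusted p = 0.0652). At P24, 28 of 29 subunits had fallen since P3 (median -0.49), where 27.8% of all genes fell and 26.6% rose. Over all members 30 fell and 5 rose. PSMB3 fell by 0.72, and PSMG2 (0.38) and PSME4 (0.30) rose most. At P30 again 28 of 29 had fallen since P3 (median -0.50; 29.6% fell and 29.0% rose of all genes), and 30 members fell and 3 rose. PSMD2 fell by 0.89, and PSMD5 and PSMG2 rose by 0.29 each. PSMA1 had the lowest values at both passages, -0.96 and -1.09, and lost its call without P3 replicate 2 (adjusted p = 0.0984 at P24 and 0.0693 at P30). It was also lost at P24 without P3 replicate 3 (0.0674) P24 replicate 2 (0.114) or P24 replicate 3 (0.109), and at P30 without P30 replicate 1 (0.135) or 2 (0.125). With upper-quartile scaling the members' counts were 21 fallen and 3 risen at P11, and 27 fallen and 5 risen at P24. Of all genes 3104 fell and 4719 rose at P11 with that scaling, and 3693 fell and 5405 rose at P24.

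Between neighbouring later passages fewer members passed. From P11 to P24, 10 subunits fell and 0 rose, and 12 members fell and 2 rose, where 17.7% of all genes fell and 16.0% rose. PSMB7 (-0.27) and PSME1 (-0.30) fell most, and PSMG4 (0.34) and PSME4 (0.28) rose. Without P11 replicate 2 only 4 members fell in this step. The PSME1 call was lost without P11 replicate 2 (adjusted p = 0.135), P24 replicate 1 (0.0712) or P24 replicate 2 (0.115), and the PSMG4 call without P11 replicate 1 (0.0846). From P24 to P30, 4 subunits fell and 2 rose, and 5 members fell and 4 rose (17.1% and 18.0% of all genes). PSMD2 (-0.47) and the core chaperone PSMG4 (-0.50) fell most, while PSME1 (0.33) and PSMD10 (0.29) rose most. PSME1 lost this call without P24 replicate 2 (0.0786) or P30 replicate 3 (0.0697). From P30 to P33 the subunits fell again, 18 of 29 with 1 rise, and 22 members fell with 1 rise (24.8% and 23.6% of all genes). PSMB1 (-0.48) and PSME1 (-0.46) fell most there. That last count was 16 fallen and 4 risen with upper-quartile scaling, and 16 fallen and 5 risen when only genes at 10 CPM were kept. Of all genes 3099 fell and 4844 rose with that scaling, and 2630 fell and 2904 rose with that filter. Of the 29 subunits, 16 had values below 0 in all 4 steps.

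With P11 as the baseline, the fall at P33 was smaller and still common. Of the 29 subunits 26 fell (median -0.37), and over all members 30 fell and 1, PSMD10, rose (0.25), beside 29.7% and 27.7% of all genes. PSMB1 (-0.81), PSMC1 (-0.66) and PSMC3 (-0.61) fell most among members with many reads. The subunits without a call were PSMA4, PSMB5 and PSMD12.

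**Figure D3:**
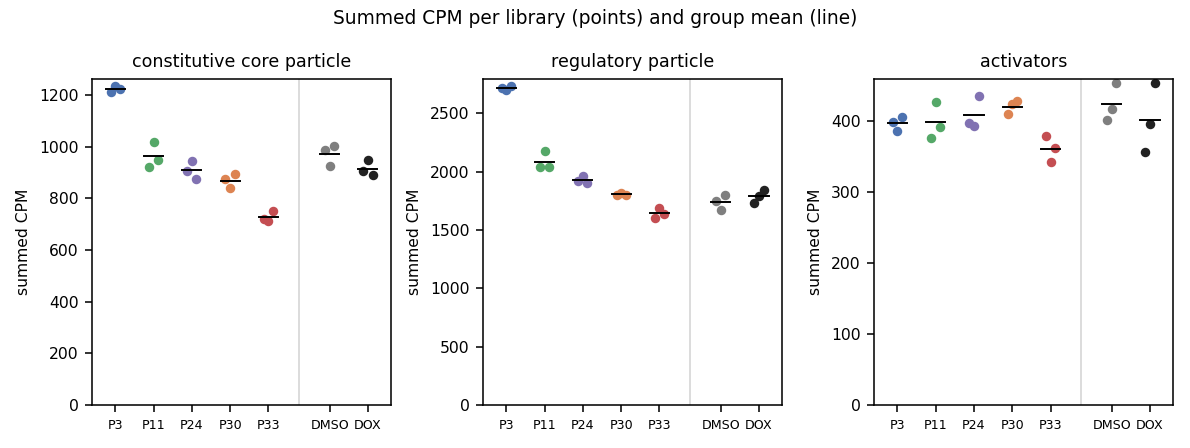
Summed CPM (y axis) of the core particle, the regulatory particle and the activators in each library (points) and the group mean (line), with DMSO and DOX apart since the table counts them differently. Over the passages both particles are highest at P3 and lowest at P33, and the activators lie between 342 and 435 CPM. The core sums of the passages hold no reads of PSMA2 and PSMA6.

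The sums of the particles moved in step. In the passage libraries the core sum held no reads of PSMA2 and PSMA6 and at most 1.12 CPM of PSMA1. The core sum and the ratio there thus rest on the other core subunits. Summed CPM of the core subunits was 1212 to 1236 at P3 and 921 to 1018 at P11. It was 875 to 944 at P24, 839 to 893 at P30 and 714 to 750 at P33. For the regulatory particle the sums were 2696 to 2738 at P3, 2038 to 2179 at P11 and 1600 to 1687 at P33. The ratio of core to regulatory sums was 0.446, 0.458 and 0.447 at P3 and 0.449, 0.423 and 0.457 at P33, so these groups overlapped. It was highest among the passages at P30, with 0.486, 0.462 and 0.495, which overlapped P11 and P24. All members together summed to 4541 to 4581 CPM at P3 and 2904 to 2961 at P33.

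Of the 4 chaperones that build the core particle, 1 rose and 1 fell at P33. PSMG2, which pairs with PSMG1 to start the alpha ring, was the only member that rose at P33, from 18.6, 18.1 and 18.2 CPM to 25.3, 24.5 and 23.8 (0.42 ± 0.078, adjusted p = 1.53e-05). It was already at 23.1, 23.2 and 22.3 CPM at P11, and from there P33 gave 0.10 with no call. Its partner PSMG1 went the other way, from 25, 26.2 and 26.2 CPM to 19.3, 20.7 and 21.2 (-0.34 ± 0.0728, adjusted p = 0.000127). PSMG3 and PSMG4, the other pair of core chaperones, had -0.11 ± 0.0901 and -0.06 ± 0.0996 and did not pass. With P11 as baseline PSMG3 had -0.30 and did pass.

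PSMD5 and PSMD10 are chaperones of the base ATPases, and neither passed at P33 against P3. With P11 as baseline PSMD5 fell (-0.16, adjusted p = 0.0342) and PSMD10 rose (0.25, adjusted p = 0.00181). PSMD5 was higher than at P3 in P11, P24 and P30 (0.19, 0.27 and 0.29), with 38.5, 40.1 and 38.3 CPM at P3 and 46.2, 46.3 and 51.3 at P30. At P33 it was back at 38.7, 40.9 and 40.6 CPM (0.04 ± 0.0621, not called). PSMD10, also known as gankyrin, had 39.1, 40.3 and 36.8 CPM at P3, 32.5, 36 and 33.5 at P24 and 42.3, 41.7 and 39.7 at P33. P33 and P3 overlapped (0.09 ± 0.0638, not called).

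Activators open the core particle in place of the regulatory particle. PSME1 and PSME2 are the interferon-inducible pair, and the difference between them was not tested. PSME1 had 120, 116 and 116 CPM at P3 and 100, 82.8 and 99.2 at P33 (-0.32 ± 0.106, adjusted p = 0.00851), and PSME2 had 56.8, 56 and 61.5 against 65.6, 60.8 and 65.3 (0.14 ± 0.113, not called). The PSME1 call was lost without P33 replicate 2 (-0.22, adjusted p = 0.0965), with DESeq2, with upper-quartile scaling and with the 10 CPM filter. With P11 as baseline PSME1 fell by 0.44 (adjusted p = 0.000702). PSME3, the nuclear activator, fell by 0.18 (adjusted p = 0.00419), and PSME4, the activator linked to histone turnover, had -0.07 with no call. PSME3 lost its call without P33 replicate 2 (-0.13, adjusted p = 0.0673). PSMF1, an inhibitor of the core, had -0.21 ± 0.0584 (adjusted p = 0.00241), and neither it nor PSME3 passed with upper-quartile scaling or with P11 as baseline. PSMB10, the third inducible beta subunit, stood at 3.94, 4.16 and 3.63 CPM at P3 and 2.82, 3.48 and 3.23 at P33 (-0.31 ± 0.163, not called).

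**Figure D4:**
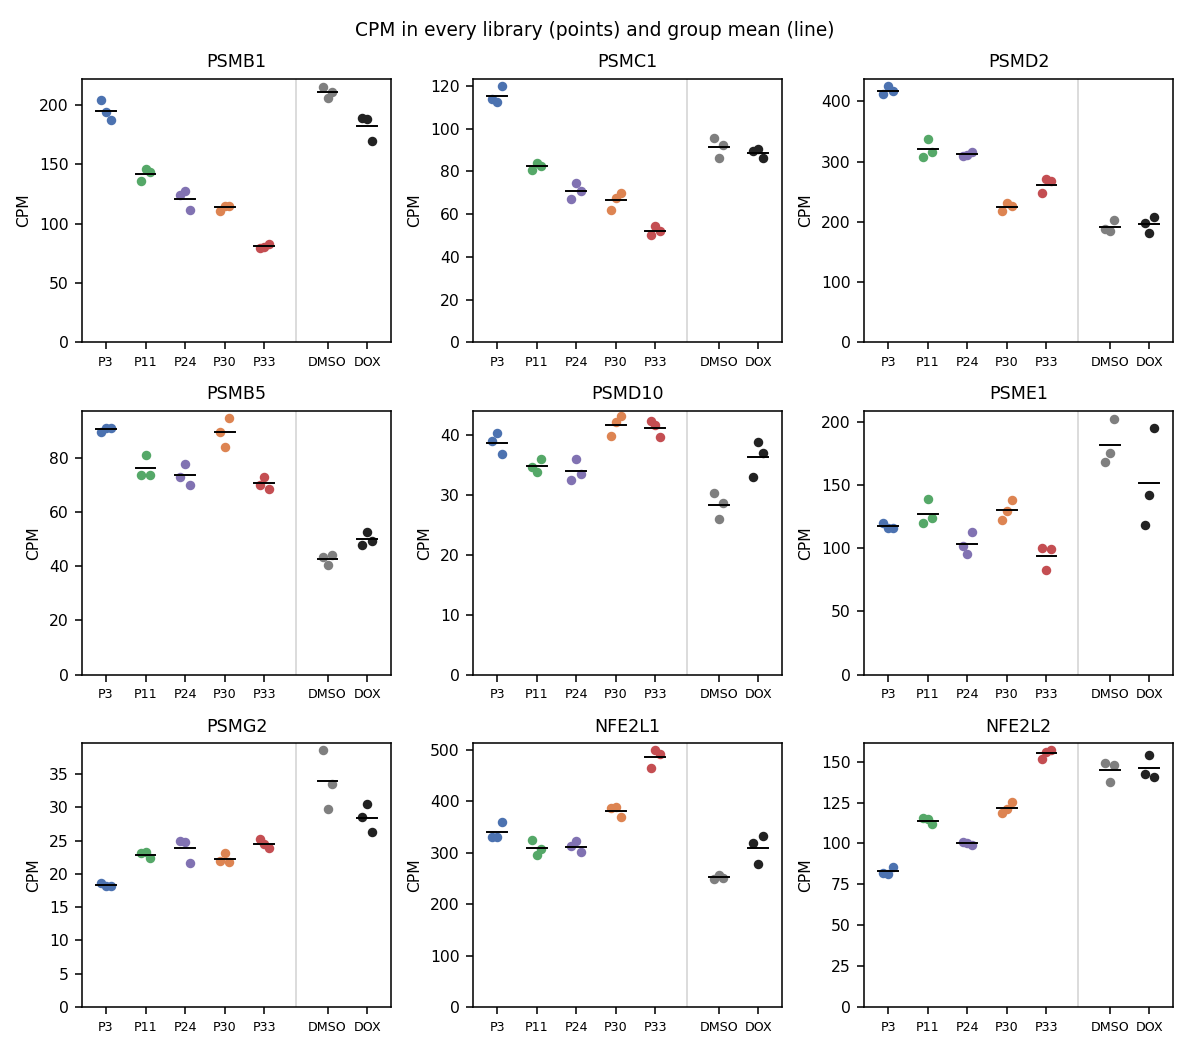
CPM (y axis, from 0) in every library (points) and the group mean (line) for 7 members and the transcription factors NFE2L1 and NFE2L2, with DMSO and DOX to the right of the line. PSMB1 and PSMC1 step down over the passages, PSMD2 is lowest at P30, PSMB5 returns at P30, and both factors are highest among the passages at P33.

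Genes around the proteasome were split. Of 35 tested genes for other subunits, cofactors, ubiquitin and regulators, 17 fell and 8 rose from P3 to P33, with a median of -0.14. Over all genes 33.3% fell and 34.5% rose. SEM1 and ADRM1, subunits of the regulatory particle under other names, fell like its PSM members, by 1.02 and 0.73. SEM1 had 136, 106 and 130 CPM at P3 and 57.5, 61.9 and 63.4 at P33. VCP, the ATPase that extracts ubiquitin-tagged proteins, fell by 0.70, mostly from P30 to P33 (-0.45). The deubiquitinases bound to the proteasome differed, with UCHL5 at -0.56 ± 0.0668 and USP14 at -0.06 ± 0.0498 with no call. UCHL5 had already fallen at P11 (-0.51 ± 0.0677). The core maturation factor POMP had -0.26 (adjusted p = 0.000789), which did not pass with upper-quartile scaling (-0.13).

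Of 7 listed transcription factors and enzymes that process them, 4 rose and 0 fell at P33, and all 4 are factors. Over all genes 34.5% rose and 33.3% fell. The factor MAFK (0.08) and the NFE2L1-processing enzymes DDI2 (-0.07) and NGLY1 (0.03) did not pass. NFE2L1 had 331, 330 and 359 CPM at P3, 325, 296 and 306 at P11 and 464, 499 and 491 at P33 (0.51 ± 0.0567, adjusted p = 1.57e-09). NFE2L2, the factor of the oxidative stress response, had 82, 81.1 and 85.7 CPM at P3 and 152, 156 and 157 at P33 (0.90 ± 0.05, adjusted p = 1.22e-16). Their small MAF partners MAFF (0.75) and MAFG (0.67) rose as well. In all 4 genes the libraries at P33 lay above those at P3 while the core and regulatory subunits lay below. These are RNA levels, and NFE2L1 and NFE2L2 are known to be controlled largely as proteins.

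Other gene groups moved over the same passages. Cytosolic ribosomal protein genes fell in 74 of 81 cases at P33 (median -0.89) and mitochondrial ones in 62 of 71 (-0.58), so falls of this size were also found outside the proteasome genes. Nearly all members are abundant, and among the 8943 genes at 10 CPM or more on average, falls outnumbered rises in most passage comparisons. In these genes 4288 fell and 2588 rose from P3 to P33 (median -0.13), 3260 and 2179 from P3 to P11, 3667 and 2347 from P3 to P24, and 3526 and 2853 from P3 to P30. Between later neighbours 2162 fell and 1696 rose from P11 to P24, 1626 fell and 2272 rose from P24 to P30, and 3481 fell and 1729 rose from P30 to P33. Genes with short transcripts fell more: the median was -0.24 under 1000 nt, where 15 members lay (-0.61), and -0.22 from 1000 to 1500 nt, where 16 members lay (-0.64). A list of 6 cycling genes summed to 994 to 1063 CPM at P3, 277 to 286 at P30 and 413 to 440 at P33. The cycling sum was thus lowest at P30 and the proteasome sum at P33. Of 12 interferon-response genes, 11 rose at P33 and 0 fell. The part of these in the proteasome values was not tested.

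With DOX against DMSO proteasome genes passed in both directions. Of 31 core and regulatory subunits 4 rose, 3 fell and 24 did not pass, with a median log2 fold change of -0.0017. Over the 44 members 6 rose and 7 fell, near the shares of all genes (16.7% and 20.6%). With upper-quartile scaling 9 members rose and 4 fell, where 3383 of all genes rose and 2892 fell. Among the 8943 genes at 10 CPM or more on average, 1778 rose and 2505 fell. In this comparison the 6 cycling genes all fell (median -2.73), their sum going from 329 to 351 CPM with DMSO to 46.6 to 50.4 with DOX. All members summed to 3217 to 3474 CPM with DMSO and 3199 to 3405 with DOX, and the groups overlapped. The core to regulatory ratio was 0.562, 0.554 and 0.558 with DMSO and 0.523, 0.529 and 0.483 with DOX, with no overlap.

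Of the 3 chaperones of the base, 2 rose with DOX, and PSMD9 (-0.11 ± 0.245) did not pass. PSMD10 had 30.4, 26.1 and 28.6 CPM with DMSO and 33, 38.9 and 37 with DOX (0.35 ± 0.068, adjusted p = 0.000102), and PSMD5 had 40.7, 42.6 and 43.6 against 47.6, 48.8 and 46.3 (0.17, adjusted p = 0.0296). The groups did not overlap in either gene. PSMB5 rose from 43.5, 40.5 and 44.2 CPM to 47.9, 52.6 and 49.3 (0.22 ± 0.061, adjusted p = 0.00404), and the lid subunit PSMD12 from 109, 106 and 102 to 118, 121 and 121 (0.18, adjusted p = 0.00699). PSMC2 and PSMD1 rose by 0.14 each. The PSMD5 and PSMC2 calls were lost without DMSO replicate 1 (adjusted p = 0.15 and 0.175), without DOX replicate 1 (0.0722 and 0.0946) or without DOX replicate 2 (0.0914 and 0.0608). The PSMD1 call was lost without DOX replicate 2 or DMSO replicate 3 (adjusted p = 0.168 for each).

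Falls with DOX were spread over roles. PSMB7 had 46.4, 46.6 and 48.3 CPM with DMSO and 35.6, 41.4 and 39.7 with DOX (-0.28 ± 0.0629, adjusted p = 0.000589), and PSMB1 had 215, 206 and 211 against 189, 188 and 169 (-0.21, adjusted p = 0.00231). DOX libraries lay below DMSO libraries in both genes. The core chaperones PSMG2 (-0.26, adjusted p = 0.00526) and PSMG3 (-0.31, adjusted p = 0.018), the inducible subunit PSMB10 (-0.46, adjusted p = 0.0311), PSME1 (-0.26, adjusted p = 0.0448) and PSMC3 (-0.15, adjusted p = 0.0486) also fell. PSME1 spread widely, with 168, 175 and 202 CPM against 118, 142 and 195. Each of these last 5 calls was lost when 1 or another library was left out. PSMG2 was lost without DMSO replicate 1 (adjusted p = 0.112), and PSMG3 without DOX replicate 1 (0.0552), DOX replicate 2 (0.0572), DMSO replicate 1 (0.0853) or DMSO replicate 3 (0.1). PSMB10 was lost without DOX replicate 1 (0.174), DOX replicate 3 (0.0562) or DMSO replicate 2 (0.119). PSME1 was lost without DOX replicate 1 (0.394), DOX replicate 2 (0.136), DMSO replicate 2 (0.0605) or DMSO replicate 3 (0.219), and PSMC3 without DOX replicate 1 (0.167), DOX replicate 2 (0.089), DMSO replicate 1 (0.118) or DMSO replicate 3 (0.162). PSMB10 and PSME1 are known to be interferon-inducible. The interferon-response list fell in 10 of 12 genes with DOX, and its part here was not tested.

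The other named members did not pass with DOX. PSMC1 had 95.6, 86.3 and 92.2 CPM with DMSO and 89.8, 90.5 and 86.2 with DOX (-0.04 ± 0.0557), and PSMD14 had 71.8, 59.9 and 69.7 against 64.5, 71.2 and 66.4 (0.00157 ± 0.0593). PSMA7 (-0.13), PSMB6 (-0.0017), PSMD4 (0.12), PSME2 (-0.07), PSME3 (0.10), PSME4 (0.12), PSMF1 (-0.02), PSMG1 (-0.11) and PSMG4 (0.23) did not pass. Of the members measured throughout, PSME2 alone passed in no comparison. PSMA2, PSMA6 and PSMD9 could be tested for DOX against DMSO only, and did not pass there.

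Around the proteasome, 5 of 35 related genes rose with DOX and 1 fell, beside 16.7% and 20.6% of all genes. NFE2L1 rose from 250, 256 and 250 CPM to 318, 279 and 332 (0.30 ± 0.0574, adjusted p = 8.26e-05), and PAAF1, a chaperone of the regulatory particle, by 0.38 (adjusted p = 0.00147). POMP rose by 0.18 (adjusted p = 0.027), a call lost without DOX replicate 2 (0.0875), DOX replicate 3 (0.112), DMSO replicate 1 (0.105) or DMSO replicate 2 (0.132). MAFG rose by 0.26 and MAFF fell by 0.33. NFE2L2 had 0.01, ADRM1 -0.0049, SEM1 -0.21, UCHL5 -0.16 and USP14 0.08, with no call.

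The 2 conditions were then compared directly, as the DOX effect minus the P33 effect on the log2 scale, which uses no level across the differently counted parts. All 29 measured core and regulatory subunits were higher in this difference and 0 lower (median 0.71). Their median was -0.74 at P33 and -0.0017 with DOX, so the difference largely repeats the fall at P33. Over all members 32 were higher and 1 lower, beside 25.8% and 25.4% of all genes. Among the 8943 genes at 10 CPM or more on average, 3470 were higher and 2323 lower. Cytosolic ribosomal protein genes again moved like the members, with 73 of 81 higher (median 0.90). PSMC1 had 1.10 ± 0.0792 (adjusted p = 3.31e-13) and PSMB1 1.05 ± 0.0776. PSMA1 had the largest value, 1.94, from its few passage reads. PSMG2 was the 1 member that was lower (-0.69 ± 0.108, adjusted p = 2.46e-06), as it rose at P33 and fell with DOX. With P11 in place of P3 as baseline for the P33 effect, 23 of 29 subunits were higher and 0 lower. The shares of all genes above belong to the P3 baseline, and none is given for this one. The DOX effect is measured within P11 and the P33 effect across passages, so passage and treatment cannot be told apart here.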

How the data were processed

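The authors deposited 1 table of whole-number read counts per gene, without normalization. The submitters' processing notes list FastQC 0.11.9, cutadapt 3.3, HISAT2 2.1.0, SAMtools 1.11, Subread, DESeq2 1.34.0 and featureCounts 2.0.1; its builds are hg38 and GRCh38.p13. Options and the strand setting of the counting: not given in the sources used here.

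Here filterByExpr (minimum count 10) left 16821 of 61544 genes. After TMM scaling, edgeR 4.0.16 (with limma 3.58.1, R 4.3.3) fitted its quasi-likelihood model with 1 coefficient for each of the 7 groups. Residual degrees of freedom were 14, and the common coefficient of biological variation was 5.48%. The two-sided tests were adjusted by Benjamini-Hochberg over all genes tested, and a gene was called at an adjusted p under 0.05. CPM use TMM-scaled library sizes. The code was tested on simulated data. The 9 comparisons were P11, P24, P30 and P33 against P3, the later steps, DOX against DMSO, and the DOX effect minus the P33 effect. Alternatives were other scalings, filters and fits, DESeq2 1.42.0, a replicate block and leaving out each library.

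Named with values were a list of members by role, the 5 largest called rises and falls for P33 against P3 and DOX against DMSO, the 2 largest in other comparisons, and 7 related genes with the 3 largest called rises and falls of their list. Members named beyond this (among them PSMA3 to PSMA5, PSMB2 to PSMB4, PSMC6, PSMD1, PSMD2 and PSMD12) were picked after their values were seen. Members and lists were chosen with earlier results of these data known. The P11 baseline, transcript lengths, motifs and grouping of subunits were added after seeing the data. Whether replicates were separate cultures is not in the labels: p-values cover the spread between these libraries alone, which may be technical.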

Additional observations from a re-analysis of the deposited data

How the results depend on the processing

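The fall of all 29 measured core and regulatory subunits at P33 held under each alternative chosen at the outset, with 23 of 23 without genes that overlap on their strand, and 26 with P11 as baseline. Of 259 pairs of a named or called gene and a comparison, recomputed 3819 times, 259 values lost their call, 20 gained one and 40 changed sign. Upper-quartile scaling and the 10 CPM filter moved the median of all genes at P33 by 0.130 and 0.125. The cause of the changes was not tested. PSMA1 rests on 178 reads in the passage libraries, at no more than 1.12 CPM. The 10 CPM filter kept it only through its DOX and DMSO levels (10.6 to 17.2 CPM). Its fall under that filter is therefore no added support.

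With upper-quartile factors the members' median was -0.15 for P11, -0.28 for P24, -0.42 for P30 and -0.46 for P33 against P3, -0.10 for P30 against P24, -0.13 for P33 against P30 and 0.57 for the DOX effect minus the P33 effect. The counts were 4 risen at P33 against P3, 8 fallen for P30 against P24, 4 risen for P33 against P30 and 4 fallen with DOX. Of all genes these were 6960, 3270, 4844 and 2892 in the same order. With the 10 CPM filter the medians were -0.30 (P24 against P3), -0.44 (P30 against P3), -0.48 (P33 against P3), -0.0996 (P30 against P24), -0.11 (P33 against P30) and 0.57 (difference). The counts were 3 risen at P33, 7 fallen for P24 against P11, 9 fallen for P30 against P24, 5 risen for P33 against P30 and 4 fallen with DOX. With no count filter 1 rose at P11, 3 at P24, 6 fell for P24 against P11, 3 rose with DOX (2 of them subunits), and the medians were -0.50 (P30 against P3) and -0.61 (P33 against P3). Without overlapping genes 7 fell for P24 against P11, 3 rose with DOX (1 subunit), and the medians were -0.45 (P30 against P3) and -0.0981 (P30 against P24). With the parts fitted separately 8 fell for P30 against P24, 4 rose for P33 against P30, 3 fell and 2 subunits rose with DOX, and the medians were -0.49 (P30 against P3) and -0.18 (P33 against P30). With P11 as baseline the medians were -0.30 (P33) and 0.30 (difference).

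Leaving out 1 library gave 1 to 2 risen at P11 (median -0.27 to -0.21), 3 to 4 risen at P24 (median -0.38 to -0.34) and medians of -0.48 to -0.45 at P30 and -0.61 to -0.57 at P33. It gave 1 to 2 risen and 4 to 10 fallen for P24 against P11, a median of -0.0765 to -0.0467 for P30 against P24, and 1 to 2 risen with a median of -0.21 to -0.18 for P33 against P30. With DOX 3 to 7 members rose and 3 to 7 fell, 2 to 4 subunits rose and 2 to 5 fell, and the difference had a median of 0.59 to 0.66.

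Single genes changed sign as follows, in log2 fold change. With the 10 CPM filter (P33 against P3) PSME4 0.0502, PSMG3 0.011, PSMG4 0.0682, USP14 0.0617. With P11 as baseline (P33 against P3) PSMG4 0.0424, PSMA4 0.0777. With upper-quartile factors (P33 against P3) PSME4 0.0553, PSMG3 0.0158, PSMG4 0.0732, USP14 0.0666. With the 10 CPM filter (DOX against DMSO) PSMB6 0.0274, PSMF1 0.0128, ADRM1 0.0239. With DESeq2 (DOX against DMSO) PSMB6 0.00618, ADRM1 0.00331. With RLE factors (DOX against DMSO) PSMB6 0.00667, ADRM1 0.00329. With no count filter (DOX against DMSO) PSMD14 -0.0111, NFE2L2 -0.00265. With the parts fitted separately (DOX against DMSO) PSMB6 0.0218, PSMF1 0.00645, ADRM1 0.0176. With upper-quartile factors (DOX against DMSO) PSMB6 0.0408, PSMC1 0.000711, PSMF1 0.0258, ADRM1 0.0371. With P11 as baseline (DOX effect minus P33 effect) PSMA4 -0.21. Leaving out 1 library with DOX gave PSME2 -0.19 to 0.0653, PSMF1 -0.0715 to 0.0435, ADRM1 -0.0837 to 0.0562, PSMB6 -0.0500 to 0.0244, PSMD14 -0.0629 to 0.0495, NFE2L2 -0.0349 to 0.0297. Except for PSMA4, none of these genes was called with all libraries in the comparison where its sign changed.

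The replicate numbers did not pair the samples (r of deviations from -0.077 to 0.041). With a replicate block 33 members fell and 1 rose at P33 against P3, 7 rose and 6 fell with DOX, and 33 were higher and 1 lower in the difference.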
